A study of Mus musculus with 15 samples.

Results

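The genes described here are 10 genes of fatty acid and triglyceride synthesis, taken as every probe set on the array that carries exactly 1 of the symbols Srebf1, Acaca, Acacb, Fasn, Scd1, Elovl6, Gpam, Agpat2, Dgat1 or Dgat2 in the platform's probe-to-gene table. They were read by 18 of the 34945 single-symbol probe sets, and the array names 18193 genes in this way. The study measured total RNA of primary hepatocytes from C57BL/6 mice on Affymetrix mouse expression arrays, with 3 arrays in each of 5 groups. IRE1a, encoded by Ern1, is an endoplasmic reticulum (ER) stress sensor, a membrane kinase and endoribonuclease that splices Xbp1 mRNA. The first arm held cells infected for 48 hours with an adenovirus, without further treatment: Ad-EGFP (a fluorescent protein, the control), Ad-WT (wild-type IRE1a) or Ad-S724A (IRE1a with a serine of the kinase activation loop changed to alanine). In the other arm, cells were infected for 72 hours with Ad-shCON (a control hairpin) or Ad-shIRE1a#2 (a hairpin against IRE1a) and then given glucagon for 4 hours. Every hairpin array therefore carried glucagon, and 1 hairpin sequence stands for the knockdown. All cells were kept in HepatoZYME-SFM medium, and the endogenous Ern1 gene remained in all of them. The labels number the arrays of a group from 1 to 3 and the series text speaks of 3 independent experiments, but neither ties a number to an animal or a culture, so p-values measure the spread between these arrays.

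Hepatocytes make fatty acids from acetyl-CoA in the cytosol and store them as triglyceride. Acetyl-CoA carboxylases (Acaca, Acacb) form malonyl-CoA, fatty acid synthase (Fasn) builds palmitate from it, Elovl6 lengthens palmitate and Scd1 adds a double bond. Gpam attaches an acyl chain to glycerol-3-phosphate, Agpat2 attaches the next to give phosphatidic acid, a lipin phosphatase releases diacylglycerol, and Dgat1 or Dgat2 adds the last acyl chain. Srebf1 encodes SREBP1, the transcription factor that drives much of this programme in liver under insulin, whereas glucagon is known to restrain it. Xbp1 is also known to support lipogenesis in liver.

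Signals are log2 values, so a difference of 1 is a doubling, and levels of different probe sets were not set against each other. Array medians lay between 5.69 and 5.83, between 79.0% and 81.4% of probe sets stood at 4 or more, and pairs of arrays correlated at 0.956 to 0.995 over all probe sets. The Ern1 probe set 1437119_at read 8.89, 8.96 and 9.10 with the control hairpin and 7.60, 7.44 and 7.51 with the IRE1a hairpin, a difference of -1.47 ± 0.19 (limma, SE, adjusted p = 0.00505, n = 3 and 3). Of the other 4 Ern1 probe sets, 1421240_at, 1431886_at and 1438583_at were lower on every knockdown array (-0.58 ± 0.14, -0.65 ± 0.17 and -0.43 ± 0.14) without passing (adjusted p = 0.156, 0.224 and 0.427), and the dim 1450176_at was not lower (0.35 ± 0.17, adjusted p = 0.652). The probe set 1437119_at read 9.41, 8.68 and 8.81 with EGFP, 9.30, 8.89 and 9.07 with wild-type IRE1a, and 9.68, 9.04 and 9.54 with S724A, and neither contrast with EGFP passed (adjusted p = 0.805 and 0.191). Where these probes lie relative to the viral IRE1a sequence is not known here, so they check the knockdown and not the overexpression. The 7 measured hepatocyte markers, Alb, Apoa1 and Ttr among them, averaged 12.3 to 12.6 over the groups. Group means of other lists were 7.69 to 7.94 for 6 macrophage markers, 5.45 to 5.70 for 6 endothelial, 4.91 to 5.12 for 6 stellate cell, 5.58 to 5.65 for 4 cholangiocyte, 5.65 to 5.92 for 4 adipocyte and 4.29 to 4.49 for 5 lymphocyte and neutrophil markers. Adipoq, Lrat, Col3a1, Krt7 and Ptprc stayed under 4 on every array. The macrophage markers Cd68 and Cd14 reached 10.96 to 12.13 and 10.86 to 12.49. The other macrophage markers read lower: Adgre1 4.97 to 5.59, Clec4f 5.10 to 5.56, Lyz2 5.91 to 6.46 and Csf1r 6.58 to 7.12. The adipocyte marker Fabp4 read 8.58 to 10.97, the stellate cell marker Acta2 6.78 to 7.44 and the cholangiocyte marker Epcam 6.54 to 7.36. The part of other cells in the results below was not tested, and in such bulk RNA fewer cells of a type and less RNA per cell cannot be told apart.

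RefSeq promoter windows (GRCm38.p6, 250 bases before and 50 after an annotated start) were at hand for 7 of the 10 genes, as 10 windows. The 250 bases before the start are shown for the acyltransferases Agpat2 (chr2:26604418-26604667, minus strand) and Gpam (chr19:55127239-55127488, minus strand), which catalyse successive steps and had differences of opposite sign against EGFP at 48 hours, and for Acacb (chr5:114165268-114165517, plus strand), whose window held a spelled-out ER stress element. The Acacb gene spans chr5:114146321-114250761, so its window lies at an annotated start inside the gene and not at the gene's 5' end. Capitals mark matches to a searched motif.
Agpat2: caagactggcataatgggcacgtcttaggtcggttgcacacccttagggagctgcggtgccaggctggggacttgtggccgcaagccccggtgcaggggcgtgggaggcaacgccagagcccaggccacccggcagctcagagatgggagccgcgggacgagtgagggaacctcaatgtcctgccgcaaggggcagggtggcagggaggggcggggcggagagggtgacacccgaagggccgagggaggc
Gpam: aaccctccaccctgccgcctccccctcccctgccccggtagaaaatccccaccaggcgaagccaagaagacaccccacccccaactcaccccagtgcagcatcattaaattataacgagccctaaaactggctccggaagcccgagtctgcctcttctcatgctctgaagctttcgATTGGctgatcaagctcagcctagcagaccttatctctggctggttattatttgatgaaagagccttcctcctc
Acacb: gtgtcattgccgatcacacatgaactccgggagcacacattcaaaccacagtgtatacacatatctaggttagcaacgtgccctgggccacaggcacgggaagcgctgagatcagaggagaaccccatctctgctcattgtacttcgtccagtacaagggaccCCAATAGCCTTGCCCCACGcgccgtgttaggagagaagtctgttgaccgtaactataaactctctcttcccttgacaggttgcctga
The ER stress response element, searched on both strands as CCAAT and CCACG with any 9 bases between them, occurred in 1 of the 10 windows (Acacb, from base -87 to -69) and in 39 of all 32851 windows (0.119%). A CCAAT box, ATTGG on either strand, which overlaps the Acacb element, occurred in 5 of the 10 windows and in 37.4% of all windows. Fasn carried 3 matches, of which those at bases -62 to -58 and -59 to -55 overlap on opposite strands. The E-box CACGTG, the sterol regulatory element TCACNCCAC and the cyclic AMP response element TGACGTCA occurred in 0 of the 10 windows, against 7.15%, 1.24% and 1.79% of all windows. These are matches of letters within these windows and say nothing of binding.

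With wild-type IRE1a, the last and the middle acyltransferase of the pathway fell: both Dgat2 probe sets and Agpat2 passed the test, and no probe set of the 10 genes passed as higher. The enzymes that make, lengthen and desaturate fatty acids did not pass, and neither did Srebf1. Thus 3 of the 18 probe sets were called, all lower, where 4.8% of all 37203 tested probe sets were called (1.72% lower and 3.08% higher). The median difference of the 18 was -0.02, against -0.01 over all probe sets.

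Dgat2, the acyltransferase known for using newly made fatty acids in hepatic triglyceride synthesis, showed the widest differences of the 10 genes in this comparison. Its probe set 1422678_at read 10.05, 9.999 and 9.96 with EGFP, 8.34, 8.11 and 8.33 with wild-type IRE1a, and 8.31, 8.20 and 9.80 with S724A. The wild-type arrays lay below every EGFP array by a gap far wider than either group's spread, while the third S724A array stood near the EGFP arrays and the other S724A arrays stood with the wild-type ones. The wild-type difference was -1.74 ± 0.29 (95% confidence interval -2.37 to -1.12, adjusted p = 0.00262), a signal 3.35-fold lower. The other probe set, 1422677_at, read 9.33, 9.29 and 9.22 with EGFP, 7.85, 7.71 and 7.50 with wild-type IRE1a, and 7.94, 7.74 and 9.01 with S724A. It repeated the pattern, the third S724A array again being the high one. Here the wild-type difference was -1.59 ± 0.24 (-2.10 to -1.09, adjusted p = 0.00106), or 3.02-fold lower. Both wild-type calls held under each of the alternatives run, including without any 1 array. With the third S724A array left out of the shared fit, a setting chosen after seeing the data, their SEs were 0.10 and 0.12 (adjusted p = 8.86e-07 and 5.73e-06).

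Agpat2, which forms phosphatidic acid, was read by the probe set 1428821_at alone. It gave 9.04, 8.50 and 8.82 with EGFP, 8.15, 7.90 and 8.12 with wild-type IRE1a, and 8.45, 8.21 and 8.31 with S724A. The wild-type arrays lay lowest and the S724A arrays lay between them and EGFP, and no group overlapped another. The wild-type difference was -0.73 ± 0.13 (-1.01 to -0.44, adjusted p = 0.00476), 1.66-fold lower. This call held without any 1 array and was lost when the 6 arrays were fitted alone (adjusted p = 0.0620).

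Gpam, the mitochondrial enzyme that starts glycerolipid synthesis, did not pass in the main fit, although its groups were apart. The probe set 1419499_at read 10.27, 10.51 and 10.60 with EGFP and 10.90, 11.04 and 11.38 with wild-type IRE1a, a difference of 0.65 ± 0.21 (0.21 to 1.09, adjusted p = 0.0966). The second, 1425834_a_at, read 7.67, 7.95 and 8.04 against 8.41, 8.51 and 8.35, a difference of 0.53 ± 0.23 (0.05 to 1.02, adjusted p = 0.230). On both probe sets every wild-type array stood above every EGFP array. Arrays of the same number deviated together in 2 of 3 pairs of these groups. With the number as a block both Gpam probe sets passed as higher (adjusted p = 0.00712 and 0.0481). The block called 5 of the 18, and the count over all probe sets went from 1786 to 3433. Groups did not overlap for 7 of the 18 probe sets, 3 with the wild-type arrays higher and 4 lower, where this held for 22.4% of all probe sets.

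**Figure D1:**
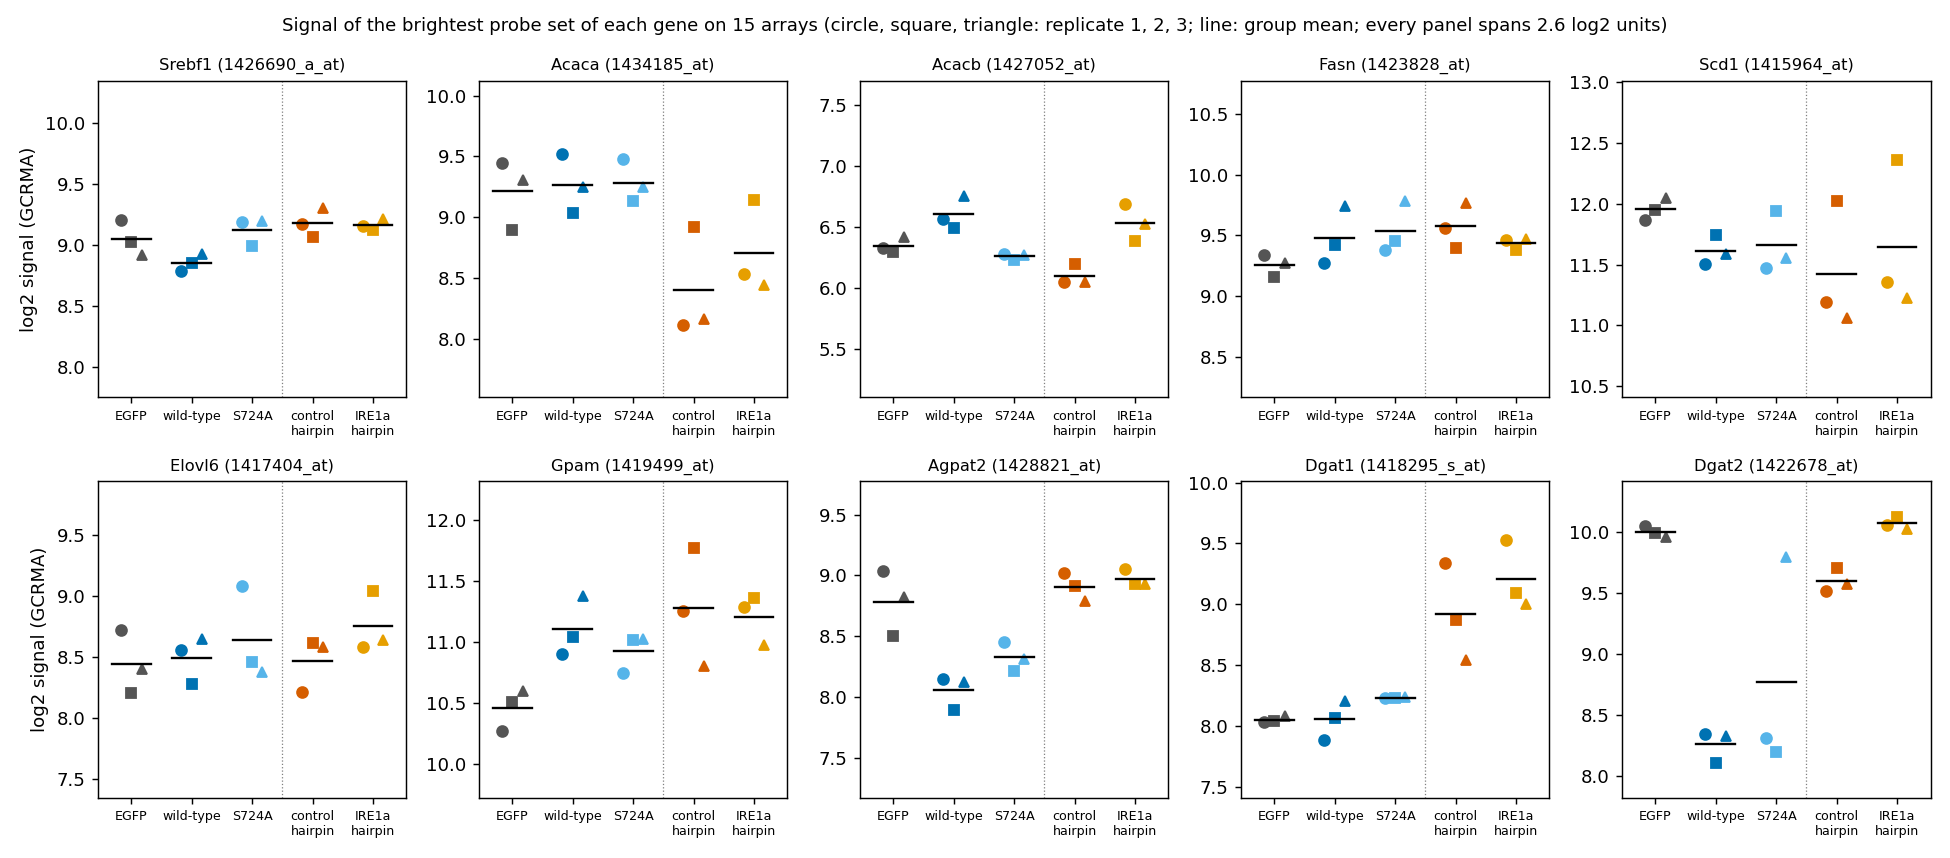
Log2 signal (vertical axis) of the brightest probe set of each gene on the 15 arrays, by group (horizontal axis); circles, squares and triangles are replicates 1, 2 and 3 and lines are group means of 3 arrays. Dgat2 drops from 10.003 with EGFP to 8.26 with wild-type IRE1a, and 1 of the S724A arrays stays at 9.80.

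Among the enzymes of fatty acid synthesis, the wild-type differences were small. Fasn read 9.34, 9.15 and 9.28 with EGFP and 9.27, 9.42 and 9.75 with wild-type IRE1a, which overlap (0.22 ± 0.14, adjusted p = 0.460). The rate-limiting carboxylase Acaca differed by 0.05 ± 0.23 (-0.45 to 0.55) and -0.05 ± 0.29 (-0.68 to 0.59) on its 2 probe sets. Acacb, the carboxylase at the mitochondrial membrane whose malonyl-CoA restrains fatty acid oxidation, read 6.33, 6.30 and 6.42 with EGFP and 6.57, 6.49 and 6.75 with wild-type IRE1a on 1427052_at. These groups were apart, by 0.26 ± 0.10 (adjusted p = 0.204), while its other probe set 1445754_at differed by -0.14 ± 0.13, of opposite sign. The desaturase Scd1 read 11.87, 11.95 and 12.05 with EGFP and 11.50, 11.74 and 11.59 with wild-type IRE1a on 1415964_at, every wild-type array lower, at -0.34 ± 0.28 (adjusted p = 0.571). Its other probe set, 1415965_at, overlapped between the groups (-0.14 ± 0.18). The elongase Elovl6 differed by 0.05 ± 0.20 on 1417404_at, 0.09 ± 0.16 on 1417403_at and 0.05 ± 0.12 on 1442656_at. Srebf1 read 9.21, 9.03 and 8.92 with EGFP and 8.79, 8.85 and 8.93 with wild-type IRE1a, groups that overlap narrowly (-0.20 ± 0.11, adjusted p = 0.366). Dgat1, the other enzyme of the last step, differed by 0.00 ± 0.18 (-0.37 to 0.38) on 1418295_s_at and by -0.07 ± 0.11 on 1445229_at.

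With S724A IRE1a, Dgat2 was the called gene: 2 of the 18 probe sets passed, both lower, where 4.08% of all probe sets were called (1.5% lower and 2.58% higher). Arrays of the same number deviated together in these groups, and with the number as a block 5 of the 18 passed, adding Agpat2 (lower) and both Gpam probe sets (higher), while the count over all probe sets went from 1517 to 3014. These arrays were set against the same 3 EGFP arrays as the wild-type ones. The differences were -1.23 ± 0.29 (-1.86 to -0.61, adjusted p = 0.0277, 2.35-fold lower) for 1422678_at and -1.05 ± 0.24 (-1.55 to -0.54, adjusted p = 0.0213, 2.07-fold lower) for 1422677_at. Both calls depend on the number of arrays and on the third S724A array. Without that array the differences were -1.75 ± 0.11 (adjusted p = 4.11e-06) and -1.44 ± 0.13 (adjusted p = 4.39e-05). Without S724A replicate 1 they were -1.003 and -0.90 (adjusted p = 0.105 and 0.0866), and without S724A replicate 2 they were -0.95 and -0.80 (adjusted p = 0.129 and 0.105). Leaving out EGFP replicate 1, 2 or 3 gave adjusted p = 0.0698, 0.101 and 0.0730 for 1422678_at and 0.0594, 0.0851 and 0.0566 for 1422677_at, and the 6 arrays alone gave 0.0755 and 0.0615. With the number as a block the adjusted p were 0.0207 and 0.0266.

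For Agpat2 the S724A difference was -0.46 ± 0.13 (-0.74 to -0.18), with all S724A arrays below all EGFP arrays, and did not pass (adjusted p = 0.0681, or 0.0153 with the number as a block). It passed without EGFP replicate 2 (-0.60, adjusted p = 0.0226), after quantile normalisation (-0.58, adjusted p = 0.0128) and in the gene-level table of mean probe sets (adjusted p = 0.0455). Gpam read 10.75, 11.01 and 11.03 on 1419499_at, above every EGFP array, at 0.47 ± 0.21 (adjusted p = 0.211, or 0.0376 with the block), and 8.24, 8.56 and 8.50 on 1425834_a_at, again above, at 0.54 ± 0.23 (adjusted p = 0.190, or 0.0490 with the block). Fasn read 9.38, 9.45 and 9.78, all above EGFP, at 0.28 ± 0.14 (adjusted p = 0.273). Dgat1 1418295_s_at read 8.23, 8.23 and 8.24 against 8.04, 8.04 and 8.08, apart by 0.18 ± 0.18 (adjusted p = 0.574). The fit shares 1 spread over all 5 groups, and this probe set varied more in the hairpin groups (SD 0.40 and 0.28) than with EGFP (SD 0.02). Acacb 1427052_at read 6.28, 6.23 and 6.27, below every EGFP array, at -0.09 ± 0.10 (adjusted p = 0.661), where its wild-type difference was 0.26. Its other probe set 1445754_at overlapped (-0.26 ± 0.13, adjusted p = 0.256). Srebf1, Acaca, Scd1 and Elovl6 overlapped with EGFP. Groups did not overlap for 8 of the 18 probe sets, 4 in each direction, where 31.4% of all probe sets had groups apart.

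**Figure D2:**
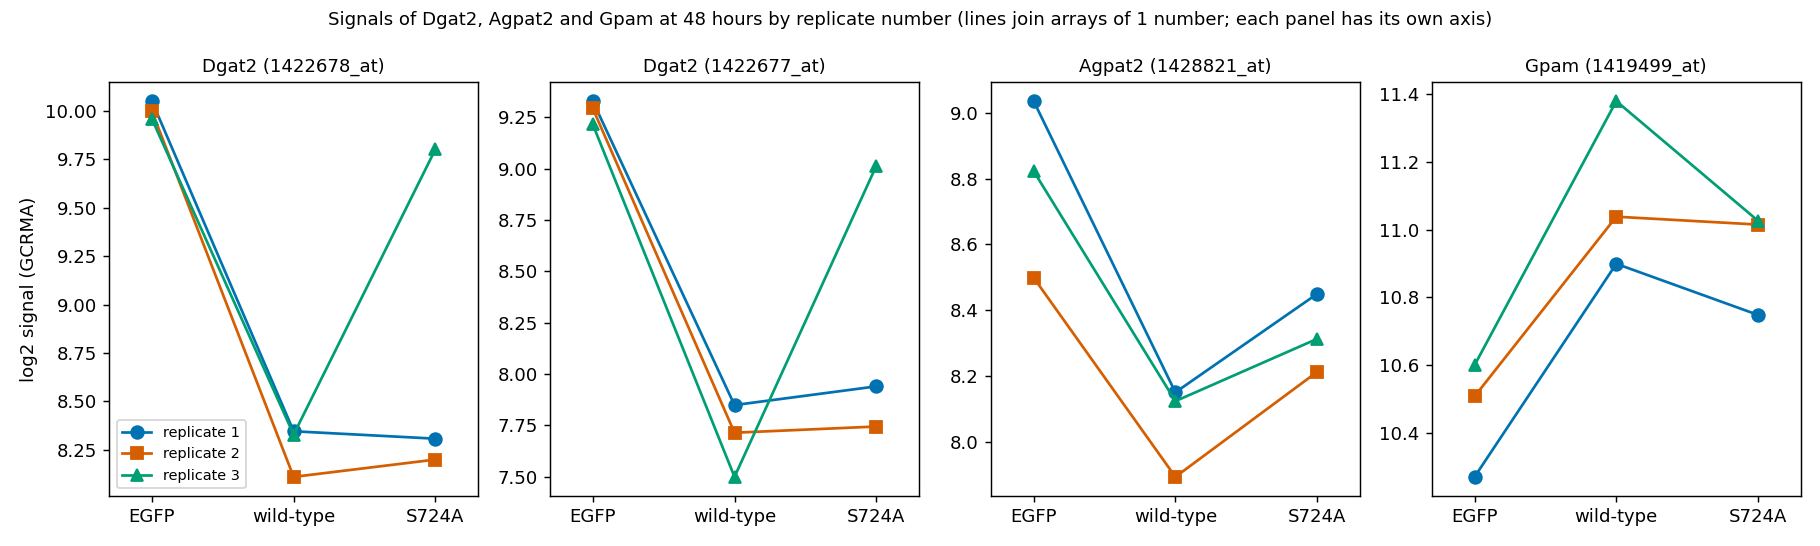
Log2 signals (vertical axes, each panel with its own range) of Dgat2, Agpat2 and Gpam in the EGFP, wild-type and S724A groups, with lines joining arrays of the same replicate number. On both Dgat2 probe sets S724A replicate 3 (9.80 and 9.01) lies close to its EGFP level, whereas for Agpat2 and Gpam it lies within or beside the other S724A arrays.

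The direct comparison of wild-type with S724A IRE1a called 0 of the 18 probe sets in limma, and 0% of all probe sets, with 3 of the 18 and 7.88% of all under an unadjusted p of 0.05. Arrays of the same number deviated together here too, and a block called 2 of all probe sets and 0 of the 18. Dgat2 differed by -0.51 ± 0.29 (-1.13 to 0.11, adjusted p = 0.699) and -0.55 ± 0.24 (-1.05 to -0.04, adjusted p = 0.620). Without S724A replicate 3 the same differences were 0.01 ± 0.11 and -0.15 ± 0.13, so this 1 array decides the value. Acacb 1427052_at read 6.28, 6.23 and 6.27 with S724A, below every wild-type array (0.34 ± 0.10, 0.12 to 0.56, adjusted p = 0.594). Srebf1 read 9.19, 8.99 and 9.20 with S724A, above every wild-type array (-0.27 ± 0.11, -0.50 to -0.05, adjusted p = 0.597). Agpat2 was lower with wild-type IRE1a on every array (-0.27 ± 0.13, -0.55 to 0.01, adjusted p = 0.649). Groups were apart for 4 of the 18 probe sets, where 14% of all probe sets had groups apart.

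**Figure D3:**
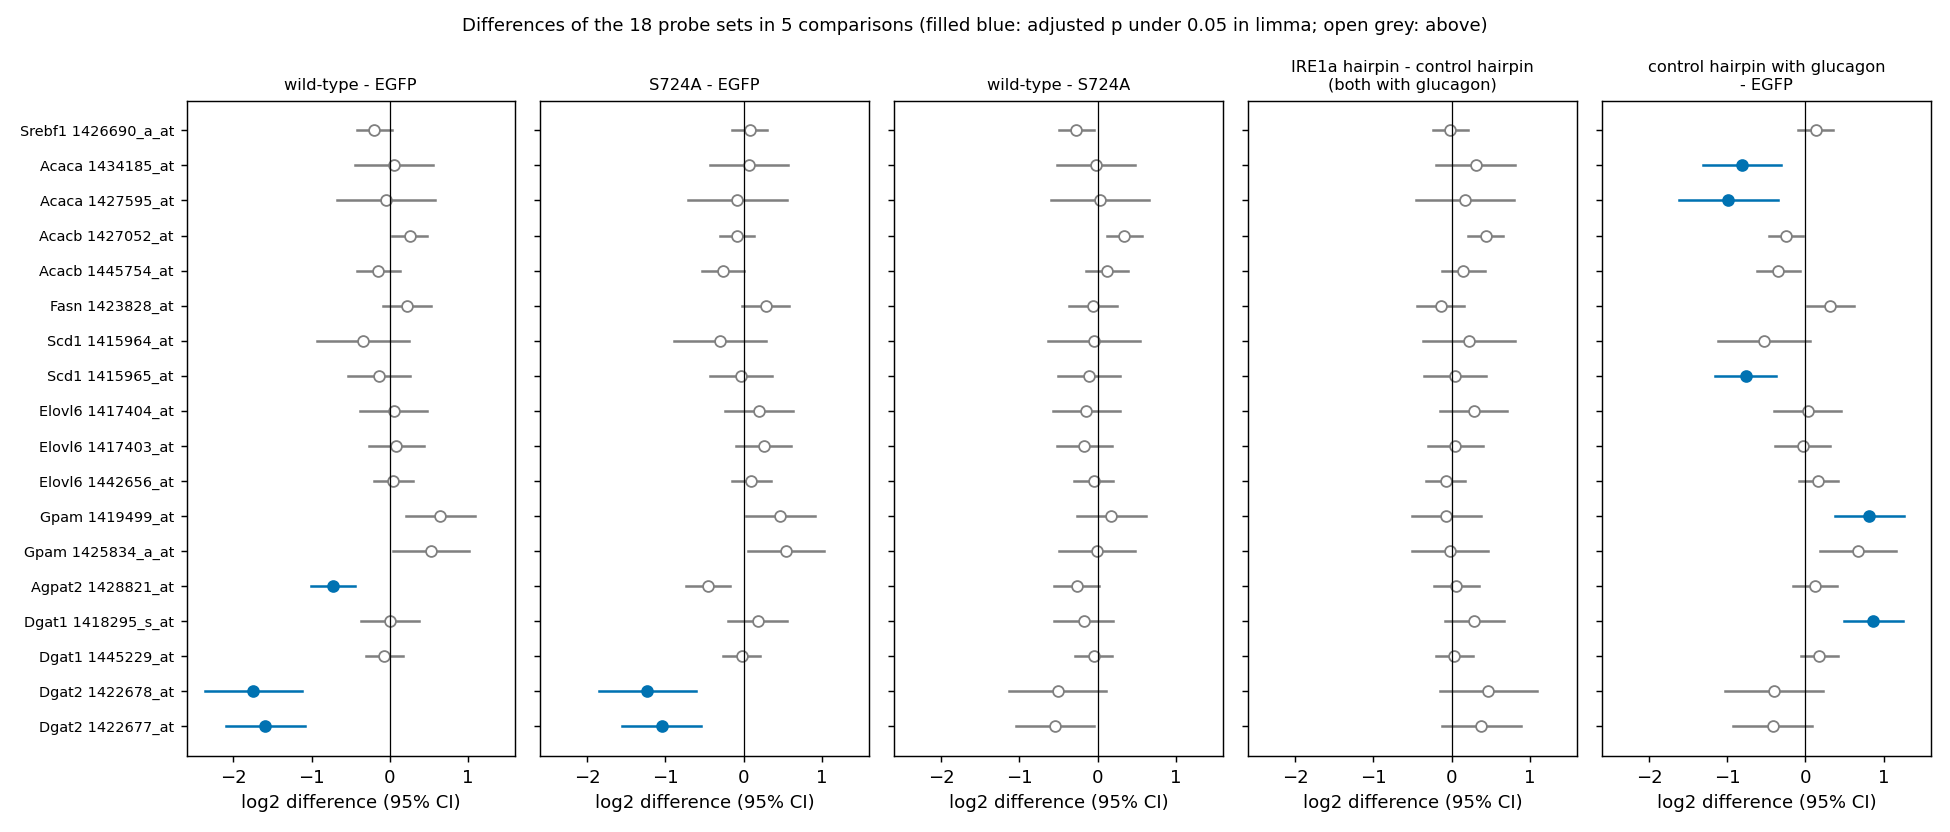
Log2 differences (horizontal axis, with 95% confidence intervals from limma) of the 18 probe sets in the 5 comparisons; filled points have an adjusted p under 0.05. Filled points are Dgat2 and Agpat2 against EGFP with wild-type IRE1a, Dgat2 alone with S724A, and Acaca, Scd1, Gpam and Dgat1 in the control hairpin with glucagon.

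Knockdown of IRE1a under glucagon called 0 of the 18 probe sets in limma, where 0.151% of all probe sets were called (56, of which 49 were lower, Ern1 among them). Under an unadjusted p of 0.05 stood 1 of the 18 and 7.69% of all. In this arm arrays of the same number deviated together. With the number as a block the count over all probe sets was 195, of which 55 were shared with the 56, and that for the 18 was again 0.

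Acacb had the smallest p of the 18 in this comparison. Its probe set 1427052_at read 6.05, 6.20 and 6.05 with the control hairpin and 6.69, 6.38 and 6.53 with the IRE1a hairpin. Every knockdown array was higher, by 0.44 ± 0.10 (0.21 to 0.66), with an unadjusted p of 0.000851 and an adjusted p of 0.164. The probe set 1445754_at overlapped (0.15 ± 0.13). Dgat2 read 9.52, 9.71 and 9.57 with the control hairpin and 10.06, 10.13 and 10.03 with the IRE1a hairpin on 1422678_at. It read 8.87, 8.98 and 8.71 against 9.26, 9.32 and 9.14 on 1422677_at. Every knockdown array lay above every control array on both, and the spread within each group was small. The differences were 0.47 ± 0.29 (-0.15 to 1.09) and 0.38 ± 0.24 (-0.12 to 0.89) (adjusted p = 0.723 for each). The spread is shared by the 5 groups, and with the third S724A array left out of the fit, a setting chosen after seeing the data, the SEs were 0.10 and 0.12 and the adjusted p 0.118 and 0.395. These 3 probe sets were those whose groups were apart, where 12.3% of all probe sets had groups apart.

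On several probe sets, among them those of Acaca, Scd1 and Gpam and 1 of Dgat1, the array numbers differed by more than the hairpins did. Acaca 1434185_at read 8.12, 8.92 and 8.16 with the control hairpin and 8.54, 9.14 and 8.44 with the IRE1a hairpin, replicate 2 being the highest in both groups. Within each of the 3 numbers the knockdown array was the higher (0.31 ± 0.23, adjusted p = 0.766, or 0.214 with the number as a block). Acaca 1427595_at read 5.35, 5.98 and 5.16 against 5.42, 5.98 and 5.61, with replicate 2 highest in both groups (0.17 ± 0.29, adjusted p = 0.914). Scd1 1415964_at read 11.19, 12.03 and 11.06 against 11.36, 12.36 and 11.23, again with replicate 2 highest and the knockdown array higher within each number (0.22 ± 0.28, adjusted p = 0.877). The other Scd1 probe set, 1415965_at, did not follow this: it read 9.53, 10.15 and 10.18 against 9.75, 10.03 and 10.21, with replicate 3 highest and the knockdown array of replicate 2 lower (0.04 ± 0.18). Dgat1 1418295_s_at read 9.34, 8.87 and 8.54 against 9.53, 9.09 and 9.001, here with replicate 1 highest (0.29 ± 0.18, adjusted p = 0.718). Fasn (-0.14 ± 0.14), Agpat2 (0.06 ± 0.13), Gpam (-0.07 ± 0.21 and -0.02 ± 0.23) and Srebf1 (-0.02 ± 0.11) overlapped between the hairpins, as did the 3 Elovl6 probe sets. On both Gpam probe sets replicate 2 was the highest and replicate 3 the lowest in both groups. They read 11.25, 11.77 and 10.81 against 11.29, 11.36 and 10.97 on 1419499_at. On 1425834_a_at they read 8.73, 9.07 and 7.88 against 8.61, 8.67 and 8.34.

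Control hairpin cells with glucagon were also set against the EGFP cells. Virus, infection time and glucagon all differ between these groups and cannot be told apart. Of the 18 probe sets, 5 were called, where 11.9% of all probe sets were called: Gpam and Dgat1 were higher (7.49% of all were higher), and both Acaca probe sets and 1 of Scd1 were lower (4.44% of all were lower). Groups were apart for 9 of the 18 and for 34.7% of all. Among them, Fasn lay above every EGFP array (0.32 ± 0.14, adjusted p = 0.156). Both Acacb probe sets lay below every EGFP array (-0.25 ± 0.10 and -0.35 ± 0.13, adjusted p = 0.131 and 0.0893). With the probe sets of a gene averaged, Acacb (-0.30, adjusted p = 0.0278) and Scd1 (-0.65, adjusted p = 0.0300) passed as lower. That setting called 5 of the 10 genes and 2537 of all 15865.

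Dgat1 1418295_s_at, at 9.34, 8.87 and 8.54 against 8.04, 8.04 and 8.08 with EGFP, was higher on every array, by 0.87 ± 0.18 (0.49 to 1.24, adjusted p = 0.00655, 1.82-fold), and this call held under every alternative run. The suffix of this probe set marks probes that can match more than 1 transcript, and the second Dgat1 probe set, 1445229_at, gave 0.17 ± 0.11 (adjusted p = 0.319). Gpam 1419499_at read 11.25, 11.77 and 10.81, above every EGFP array, at 0.82 ± 0.21 (adjusted p = 0.0206, 1.76-fold). That call was lost without control hairpin replicate 1 or 2 or EGFP replicate 1 or 2 (adjusted p = 0.0605, 0.0814, 0.0644 and 0.0576). On 1425834_a_at Gpam read 8.73, 9.07 and 7.88, the third array falling among the EGFP values, at 0.67 ± 0.23 (adjusted p = 0.0685, or 0.00145 without that array).

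Acaca 1434185_at gave -0.82 ± 0.23 (adjusted p = 0.0359, 1.76-fold lower), although control hairpin replicate 2 (8.92) lay within the EGFP range of 8.90 to 9.44. This call was lost without control hairpin replicate 1 or 3 (adjusted p = 0.140 and 0.101) or EGFP replicate 1 or 3 (0.104 and 0.112), and with the 6 arrays alone (0.0501). On 1427595_at Acaca read 5.35, 5.98 and 5.16 against 6.72, 6.27 and 6.47, apart by -0.99 ± 0.29 (adjusted p = 0.0429, 1.98-fold lower). That call was lost without control hairpin replicate 1 or 3 or any EGFP replicate (adjusted p up to 0.131). Scd1 1415965_at read 9.53, 10.15 and 10.18 against 10.61, 10.83 and 10.71, apart by -0.77 ± 0.18 (adjusted p = 0.0164, 1.70-fold lower). Without control hairpin replicate 1, EGFP replicate 2 or EGFP replicate 3 its adjusted p was 0.0743, 0.0679 and 0.0542. The brighter Scd1 probe set 1415964_at overlapped with EGFP through replicate 2 (-0.53 ± 0.28, adjusted p = 0.221). Both Dgat2 probe sets were below every EGFP array, at -0.40 ± 0.29 (adjusted p = 0.379) and -0.42 ± 0.24 (adjusted p = 0.254), and they passed with the 6 arrays alone (adjusted p = 0.0457 and 0.0476) or with the third S724A array left out of the fit (0.0206 and 0.0340). The first of these settings called 6 of the 18 and 4261 of all 37203 probe sets. The second, chosen after seeing the data, called 7 of the 18 and 4199 of all. Agpat2, at 9.02, 8.91 and 8.79, overlapped with EGFP, in contrast to its lower level with wild-type IRE1a.

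Over the 5 groups, the mean of Dgat2 1422678_at was highest with the IRE1a hairpin (10.07 ± 0.05, SD, n = 3), followed by EGFP (10.003 ± 0.05), the control hairpin (9.60 ± 0.10), S724A (8.77 ± 0.90) and wild-type IRE1a (8.26 ± 0.13). The first pair overlapped, as did the last pair, and S724A replicate 3 (9.80) lay above every control hairpin array. Agpat2 ran from 8.97 ± 0.07 with the IRE1a hairpin, through 8.91 ± 0.12 with the control hairpin and 8.79 ± 0.27 with EGFP, to 8.33 ± 0.12 with S724A and 8.06 ± 0.14 with wild-type IRE1a, and the upper 3 groups overlapped. Gpam 1419499_at was lowest with EGFP (10.46 ± 0.17), then S724A (10.93 ± 0.16), wild-type IRE1a (11.11 ± 0.25), the IRE1a hairpin (11.21 ± 0.20) and the control hairpin (11.28 ± 0.48), the upper 4 groups overlapping. Srebf1 had group means from 8.86 to 9.18, Fasn from 9.26 to 9.58 and Elovl6 1417404_at from 8.44 to 8.75. The range of Elovl6 over all 15 arrays was 8.20 to 9.08, with no group set apart.

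The probe sets most like these profiles were picked by Pearson's r over the 15 arrays, which share groups, so r is given as a description. For Dgat2 they were Lsm14b (r = 0.919), the growth factor Tgfa (0.904) and Zdhhc2 (0.903). For Agpat2 they were the calpain small subunit Capns1 (0.970), Ginm1 (0.967) and the proteasome ATPase Psmc4 (0.965). For Gpam they were Sorbs2 (0.932), Ell2 (0.919) and Pik3r1 (0.919). The closest to Fasn were Foxk2 (0.933), Tamm41 (0.924) and Gopc (0.911), and to Srebf1 Pgs1 (0.934), Dcbld1 (0.871) and Atp13a3 (0.865). For Acaca they were Shmt2 (0.931), Entpd5 (0.926) and Ugt2b5 (0.924), for Acacb Aifm3 (0.846), Dpp4 (0.843) and Clic5 (0.827), and for Scd1 Stbd1 (0.932), Ddc (0.906) and Iars (0.895). Those closest to Elovl6 were Slc25a44 (0.922), Wdr48 (0.801) and Nrn1l (0.800), and to Dgat1 F2r (0.972), Tspan9 (0.971) and Rhoc (0.967). Over the 9 arrays at 48 hours alone, r with Dgat1 was 0.703 for F2r, -0.017 for Tspan9 and 0.499 for Rhoc. With Acaca it was 0.530 for Shmt2, 0.843 for Entpd5 and 0.556 for Ugt2b5. For the genes named with Dgat2, Agpat2 and Gpam it was 0.871 to 0.971.

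The surrounding pathway was read with 1 probe set per gene, over 16294 genes, in 6 lists. With wild-type IRE1a, 6.38% of all genes were called (4.21% higher, 2.17% lower), and the median of all genes was 0.00. Of 13 other glycerolipid acyltransferases and phosphatases 2 rose and 0 fell, both of them lipins, which release diacylglycerol: Lpin3 by 1.56 ± 0.29 (adjusted p = 0.00536) and Lpin2 by 0.68 ± 0.11 (adjusted p = 0.00286). The median of this list was 0.07. Of 17 regulators of lipogenesis 1 rose, Xbp1 (0.63 ± 0.11, adjusted p = 0.00499), and the median was 0.14. Of 9 genes of acetyl-CoA, NADPH and glycolytic supply, the cytosolic NADPH enzyme Idh1 rose by 0.76 ± 0.17 (adjusted p = 0.0206) and the malic enzyme Me1 changed by -0.67 ± 0.14 (adjusted p = 0.0128), with a list median of -0.26. Of 14 other elongases, desaturases and acyl-CoA synthetases, the elongation dehydratase Hacd3 rose by 0.47 ± 0.10 (adjusted p = 0.0172), with a median of 0.00. None of 17 lipid droplet and lipase genes and none of 6 AMPK subunits passed in limma (2 and 1 at an unadjusted p under 0.05), with medians of 0.16 and -0.02. In a fit of 1 probe set per gene, 3486 of all 16294 genes had an unadjusted p under 0.05. Lpin2, Lpin3 and Xbp1 kept their calls without any 1 array, while Lpin2 lost it when all its probe sets were averaged (0.28, adjusted p = 0.252). Me1 lost its call without wild-type replicate 2 or EGFP replicate 3, Idh1 without wild-type replicate 1 or 3 or EGFP replicate 2, and Hacd3 without either of those wild-type arrays or EGFP replicate 2 or 3 (adjusted p up to 0.109). With the 6 arrays alone Idh1 and Hacd3 did not pass (adjusted p = 0.0920 and 0.0885). With the array number as a block, 10 of the 76 genes of the 6 lists passed as higher and 2 as lower. They were the 6 genes called above and Mbtps1, Gpat4, Elovl1, Elovl2, Tecr and Cidec. Over all 37203 probe sets the block called 3433. That count is by probe set and not by gene, and the main fit called 6.38% of genes against 4.8% of probe sets.

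With S724A, where 5% of all genes were called (3.25% higher, 1.75% lower), the same lipins rose, Lpin3 by 1.52 ± 0.29 (adjusted p = 0.00737) and Lpin2 by 0.54 ± 0.11 (adjusted p = 0.0146), beside the glycerol-3-phosphate acyltransferase Gpat4 (0.58 ± 0.12, adjusted p = 0.0121), and 0 of the 13 fell. Of the 17 regulators 3 rose and 0 fell: Xbp1 (0.52 ± 0.11, adjusted p = 0.0199), the SREBP protease Mbtps1 (0.58 ± 0.13, adjusted p = 0.0246) and the SREBP escort protein Scap (0.49 ± 0.12, adjusted p = 0.0279). No gene of the other 4 lists passed. At an unadjusted p under 0.05 stood 6 of the 9 supply genes, with a list median of -0.23 against -0.01 over all genes. So did 3 of the 14 elongase, desaturase and synthetase genes, 3 of the 17 droplet and lipase genes and 0 of the 6 AMPK subunits. In a fit of 1 probe set per gene, 3912 of all 16294 genes did. Of the 6 calls with S724A only that of Lpin3 held without any 1 array. Lpin2 lost its call without S724A replicate 3 or EGFP replicate 2, Gpat4 without S724A replicate 2 or 3, Xbp1 without S724A replicate 1 or 2 or EGFP replicate 2 or 3, and Mbtps1 and Scap without any S724A array or EGFP replicate 2 or 3 (adjusted p up to 0.121). Averaging all probe sets of a gene ended the calls of Gpat4 (0.28, adjusted p = 0.123), Mbtps1 (0.35, adjusted p = 0.0956) and Scap (0.41, adjusted p = 0.0714). Quantile normalisation ended those of Mbtps1 (0.46, adjusted p = 0.0638) and Scap (0.41, adjusted p = 0.0671). With the array number as a block, all 6 passed, and so did Me1 (-0.49, adjusted p = 0.0104), Idh1 (0.48, adjusted p = 0.0368), Elovl1 (0.41, adjusted p = 0.0352) and the lysosomal lipase Lipa (0.51, adjusted p = 0.0404). The block called 3014 of all 37203 probe sets here, a count by probe set and not by gene. Between wild-type and S724A, and between the hairpins, none of the 76 genes of the 6 lists passed in limma, where 0% and 0.166% of all genes were called. Of the 76, 3 and 4 had an unadjusted p under 0.05. In a fit of 1 probe set per gene, 997 and 1260 of all 16294 genes had such a p. With the number as a block 1 of the 76 passed in the knockdown, Lpin3, which was higher (0.77, adjusted p = 0.0419, against 0.528 without it), and 0 between wild-type and S724A. By probe set, the block called 195 of all 37203 in the knockdown and 2 between wild-type and S724A.

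**Figure D4:**
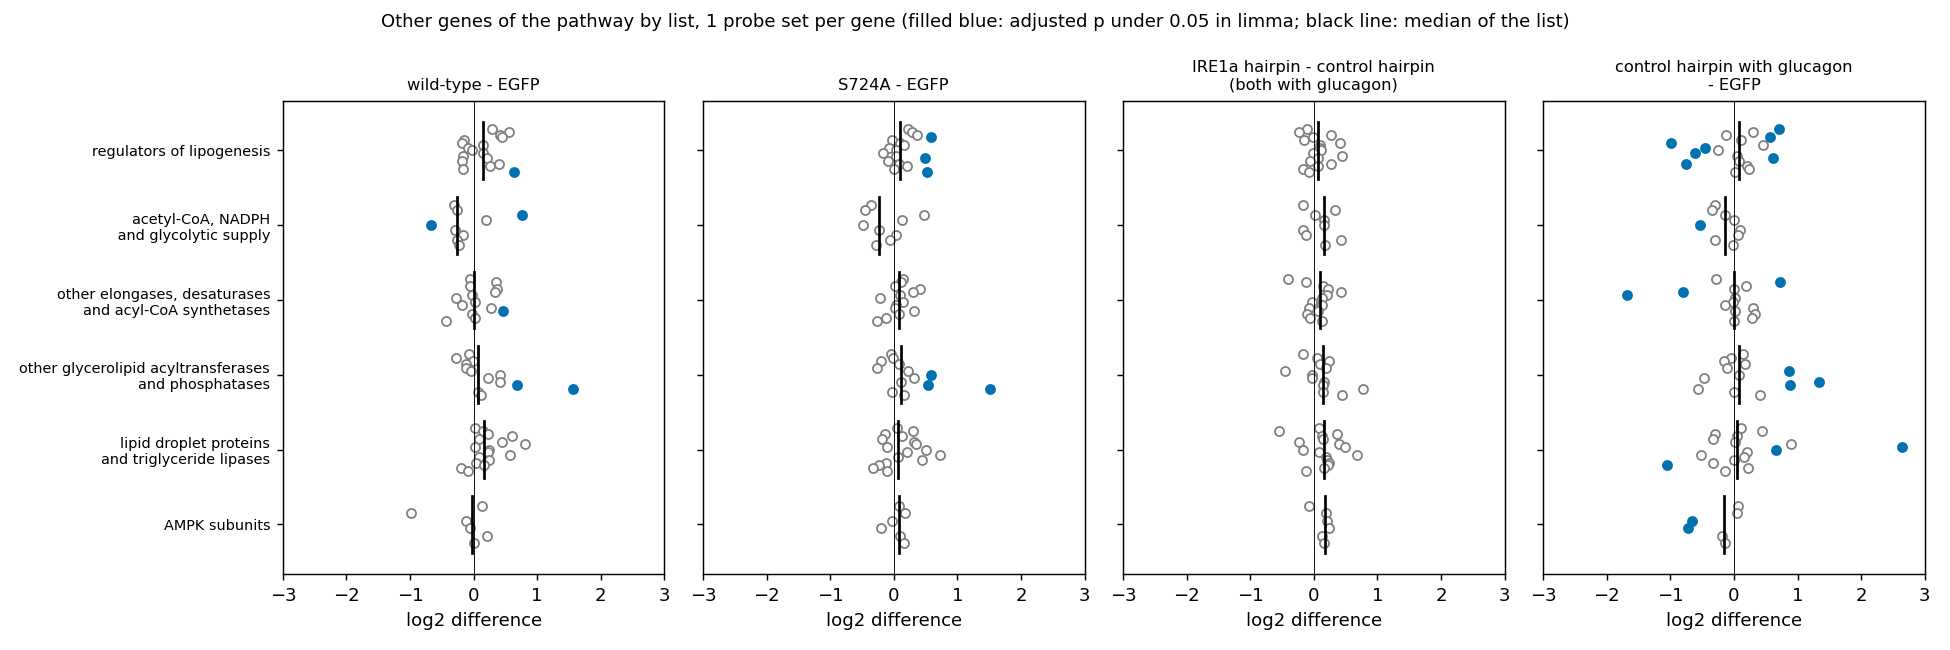
Log2 differences (horizontal axis) of the other genes of the pathway by list, 1 probe set per gene, in 4 comparisons; filled points have an adjusted p under 0.05 in limma and black lines are list medians. The filled points furthest to the right are Lpin3 in both IRE1a groups (1.56 and 1.52) and Hilpda in the control hairpin with glucagon (2.64).

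In the control hairpin with glucagon against EGFP, 14.1% of all genes were called (8.31% higher, 5.79% lower), and 19 genes of the 6 lists. The lipid droplet protein Hilpda, an inhibitor of the lipase ATGL, rose by 2.64 ± 0.27 (adjusted p = 6.17e-05) and the elongase Elovl3 changed by -1.68 ± 0.11 (adjusted p = 6.52e-07). Among the regulators 3 of 17 were higher, Scap (0.62 ± 0.12, adjusted p = 0.00443), Mbtps1 and Cebpa. Lower were 4 of the 17: Mid1ip1, an activator of acetyl-CoA carboxylase (-0.996 ± 0.195, adjusted p = 0.00554), its relative Thrsp, Mlxipl (the glucose-responsive factor ChREBP) and Pparg. Of the 13 glycerolipid genes, 3 were higher and 0 lower, Lpin2 (0.89 ± 0.11, adjusted p = 0.000399), Lpin1 (1.34 ± 0.33, adjusted p = 0.0176) and Gpat3. The other calls were Me1 (lower), Acsl4 (higher), Elovl2 (lower), Lipa (higher), the droplet protein Plin5 (lower) and the AMPK subunits Prkab1 and Prkab2 (lower). Without any 1 of the 6 arrays 5 of the 19 calls held, those of Hilpda, Elovl3, Scap, Mid1ip1 and Lpin2. The other 14 were each lost without at least 1 array (adjusted p up to 0.188). Averaging all probe sets of a gene took Mbtps1 to 0.14 (adjusted p = 0.415). Pparg lost its call in 9 of 15 alternatives, among them quantile normalisation (adjusted p = 0.0904), median centring (0.0817) and no filter (0.0536). Median centring ended that of Mlxipl (0.0574), quantile normalisation those of Acsl4 (0.0522) and Lipa (0.0757), and the 6 arrays alone those of Pparg (0.0753), Lipa (0.0610) and Thrsp (0.0557). With the third S724A array left out of the fit, Pparg (0.0596) and Lipa (0.0535) did not pass.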

How the data were processed

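The authors deposited 1 table of log2 signals for 15 arrays, made with GCRMA per the submitters' processing notes, its version not given in the sources used here. GCRMA subtracts background by probe sequence and normalises across arrays, which shrinks low signals. Genes came from the platform's probe table, with 34945 of 45101 probe sets holding 1 symbol, 932 several and 9160 none. Another 64 were control probe sets and were left out. Of the 1-symbol probe sets, 34741 matched the reference gene table by gene number.

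Probe sets with a signal of 4 or more on at least 3 of the 15 arrays were tested, 37203 in all, including all 18 of the 10 genes. One model of 5 groups (10 residual degrees of freedom) was fitted with limma 3.58.1 in R 4.3.3 (lmFit, eBayes, two-sided), with Benjamini-Hochberg adjustment over all probe sets and a threshold of 0.05. The script was tested on simulated data. A difference is the first group minus the second, with its SE or 95% confidence interval. Precision is set by having 3 arrays a group, and the median half-width of an interval was 0.307. For the pathway lists, the probe set with the highest mean stood for a gene. The text names all probe sets of the 10 genes, the list genes past the threshold (at most 4 a direction with the smallest p) and the 3 most alike genes. The genes and lists were chosen with earlier results of these data known.

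Whether replicate numbers pair arrays was checked on residuals. All 3 same-number pairs correlated above 0.1 between the hairpins (0.226 to 0.613), between S724A and EGFP (0.292 to 0.320) and between wild-type and S724A IRE1a (0.220 to 0.383), which was taken as pairing from the data. Between wild-type IRE1a and EGFP 2 of 3 did (0.0710 to 0.258), so pairing there was less clear, although each of these groups was taken as paired with S724A. Results with the number as a block are therefore given beside the main fit for this comparison too. Alternatives changed the scaling, filter, floor, variance model, unit, samples fitted and replicates. The fit without the third S724A array was added after seeing the data.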

Additional observations from a re-analysis of the deposited data

How the results depend on the processing

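No called value of the 18 probe sets changed sign in the 155 recomputed values of called results, 30 lost the call, and 15 uncalled values gained one. Counts of all probe sets called were 1786 with wild-type IRE1a, 1517 with S724A, 0 between these, 56 for the knockdown and 4439 for the control hairpin against EGFP. Averaging the probe sets of a gene, a table of fewer features, gave 1161, 991, 0, 33 and 2537, and 1 probe set per gene gave 997 for S724A and 2620 for the control hairpin. Fitting the 6 arrays alone gave 993 for wild-type IRE1a and 4 for the knockdown, and median centring gave 33 for the knockdown. For S724A the 6 arrays alone called 0 of the 18, while the count over all probe sets went from 1517 to 2095. With 1 probe set per gene, which tests 10 of the 18, S724A had 1 called and the control hairpin 3. Leaving the third S724A array out of the fit, added after seeing the data and run in the 3 comparisons that do not use S724A, gave 1762 probe sets for wild-type IRE1a, 43 for the knockdown and 4199 for the control hairpin. Beyond the construction of each alternative, the cause was not tested.

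Leaving out 1 array in turn gave 991 to 1505 probe sets for wild-type IRE1a (3 of the 18 each time), 742 to 1375 for S724A (0 to 2 of the 18), 0 to 1 between them (0 of the 18), 18 to 89 for the knockdown (0 of the 18) and 2104 to 4449 for the control hairpin (1 to 4 of the 18). The lowest counts were without EGFP replicate 2 (wild-type and S724A), IRE1a hairpin replicate 1 and EGFP replicate 3. Quantile normalisation moved the share of calls that were higher from 63.2% to 51.6% for S724A and from 64.2% to 54.5% for wild-type IRE1a, and median centring to 69.3% and 68.6%.

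With a replicate block within each arm, the counts were 3433 for wild-type IRE1a, 3014 for S724A, 2 between them and 195 for the knockdown. Of the 18 it called 5 for wild-type IRE1a and 5 for S724A, adding both Gpam probe sets (adjusted p = 0.00712 and 0.0481 for wild-type IRE1a, 0.0376 and 0.0490 for S724A) and, for S724A, Agpat2 (0.0153). By the labels, arrays of different groups share only a number. Each of the 15 arrays correlated best, within its arm, with an array of its own number, which is a hint from the data and not from the design. The block changed no other call of the 18.

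Signals are relative and hold no depth, and with 3 arrays a group the interval of a typical probe set reached 0.307 to either side.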
